A study of Homo sapiens with 4 samples.

Results

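The OAS and MX antiviral enzyme genes are the 8 human genes OAS1, OAS2, OAS3, OASL, MX1, MX2, RSAD2 and SAMHD1. They were taken by symbol from the table that pairs probe sets with genes, which gave 19 of the 54613 probe sets analysed and 8 of 19775 genes. The brightest probe set, a group of short probes for 1 transcript region, stands for each gene, and its other probe sets are given as a check. The 8 genes were picked with their signals on the arrays known, so that the values below describe them and no test was made.

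Interferons released by infected cells bind receptors whose signal reaches the nucleus through a transcription factor complex that holds IRF9 and binds the interferon-stimulated response element in the promoters of antiviral genes. OAS1, OAS2 and OAS3 are enzymes that sense double-stranded RNA and make 2′-5′-linked oligoadenylates, the second messenger of an antiviral RNA decay pathway. OASL is a relative without that enzyme activity in humans, which supports RIG-I signaling. MX1 and MX2 are dynamin-like GTPases that block the nucleocapsids of incoming viruses. RSAD2 encodes viperin, a radical SAM enzyme that makes a chain-terminating nucleotide, and SAMHD1 cleaves deoxynucleotides and so limits reverse transcription.

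RNA was measured in A549 cells, an established line from a human lung adenocarcinoma, in 4 groups of 1 array. ARRB1 siRNA nicotine cells received siRNA against β-arrestin-1, were serum starved for 36 h and stimulated with 1 µM nicotine for 24 h, and ARRB1 siRNA serum starved cells received the same siRNA with no nicotine. Control siRNA nicotine cells and control siRNA serum starved cells received a control siRNA in its place, which the study describes as non-targeting. All 4 groups were thus transfected and starved, and how long the cells without nicotine stayed in starvation medium is not given in the sources used here. There was no untransfected group. With 1 array per group the effect of a treatment and a difference between cultures or arrays cannot be told apart.

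The values were linear MAS5 signals, and the mean of each array, less the lowest and highest 2% of probe sets, was 499.9. The array medians were 68.6 to 73.3. The GAPDH control probe sets had 3′ to 5′ signal ratios of 0.885 to 0.940, and those of ACTB 1.29 to 1.38. ARRB1, the targeted gene, had signals on its brightest probe set of 224 in ARRB1 siRNA nicotine cells and 191 in ARRB1 siRNA serum starved cells, against 331 in control siRNA nicotine cells and 352 in control siRNA serum starved cells. These are log2 differences of -0.56 in nicotine treated and -0.88 in serum starved cells (SD, as used below, 0.42 and 0.38). ARRB1 was lower with ARRB1 siRNA on 6 of 7 probe sets under each treatment. The second brightest, 221861_at, had 0.11 and 0.05. Of the lower ones, 218832_x_at and 228444_at had geometric mean signals of 13.8 and 10.1, below the limit used below for expressed genes. All 5 epithelial markers (KRT8, KRT18, KRT19, EPCAM, CDH1) had signals of 384 to 32303. CDH1, which encodes E-cadherin, was the 1 of them lower in ARRB1 siRNA than in control siRNA cells by more than the SD used below under both treatments, with log2 differences of -0.77 in nicotine treated and -0.71 in serum starved cells (SD 0.27 and 0.24). KRT18 was higher by more than this SD under both, with 0.38 in nicotine treated and 0.16 in serum starved cells (SD 0.14 and 0.12). Of 11 leukocyte, endothelial and fibroblast markers 3 passed the limit used below for expressed genes, and the 11 had signals of 4.16 to 256. The summed signal of the 5 leukocyte markers was 382 to 414 in ARRB1 siRNA cells and 312 to 346 in control siRNA cells, and none of the markers was at 0. The part of these levels in the results below was not tested. In bulk RNA, a smaller number of cells that express a gene and less of its RNA per cell cannot be told apart.

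Promoter windows were in the RefSeq table (GRCh38.p14) for 5 of the 8 genes, as 8 windows of 300 bases that run from 250 bases before an annotated start to 50 bases after it. OAS2, OASL and MX2 were not matched. The windows below are shown because these genes were lower together on the arrays and interferon-stimulated genes are known for a repeated GAAA element. The capitals mark every match, on either strand, to a pair of GAAA with 2 bases of any kind between them, the spacing of the interferon-stimulated response element, or with 1 base between them (GAAANGAAA). Matches to the 2 spacings can overlap.
OAS1, chr12:112906712-112907011, plus strand: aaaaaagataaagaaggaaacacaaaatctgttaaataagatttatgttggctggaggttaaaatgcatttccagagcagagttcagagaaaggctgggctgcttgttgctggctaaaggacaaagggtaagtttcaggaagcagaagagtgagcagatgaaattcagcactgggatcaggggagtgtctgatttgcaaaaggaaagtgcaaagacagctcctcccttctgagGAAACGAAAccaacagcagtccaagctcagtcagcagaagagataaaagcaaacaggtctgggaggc
OAS3, chr12:112938224-112938523, plus strand: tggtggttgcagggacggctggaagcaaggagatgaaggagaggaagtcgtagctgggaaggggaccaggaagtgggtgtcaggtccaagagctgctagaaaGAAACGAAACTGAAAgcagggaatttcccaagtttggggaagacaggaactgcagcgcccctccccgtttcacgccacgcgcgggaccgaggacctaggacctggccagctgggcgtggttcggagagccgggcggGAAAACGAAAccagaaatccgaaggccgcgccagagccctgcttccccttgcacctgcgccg
MX1 start 1, chr21:41420308-41420607, plus strand: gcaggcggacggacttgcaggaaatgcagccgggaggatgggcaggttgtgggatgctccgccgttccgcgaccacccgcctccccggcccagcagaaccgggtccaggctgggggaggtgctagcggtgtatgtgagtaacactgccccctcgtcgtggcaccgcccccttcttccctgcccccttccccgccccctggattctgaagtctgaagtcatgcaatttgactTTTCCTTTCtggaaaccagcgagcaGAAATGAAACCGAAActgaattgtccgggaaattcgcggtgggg
RSAD2 start 1, chr2:6865635-6865934, plus strand: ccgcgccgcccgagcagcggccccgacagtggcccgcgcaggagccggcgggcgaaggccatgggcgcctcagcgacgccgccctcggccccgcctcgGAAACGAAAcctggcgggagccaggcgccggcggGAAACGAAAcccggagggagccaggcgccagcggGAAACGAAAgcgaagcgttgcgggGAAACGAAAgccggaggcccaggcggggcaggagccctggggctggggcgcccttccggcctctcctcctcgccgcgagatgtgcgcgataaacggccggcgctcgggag
RSAD2 start 2, chr2:6877527-6877826, plus strand: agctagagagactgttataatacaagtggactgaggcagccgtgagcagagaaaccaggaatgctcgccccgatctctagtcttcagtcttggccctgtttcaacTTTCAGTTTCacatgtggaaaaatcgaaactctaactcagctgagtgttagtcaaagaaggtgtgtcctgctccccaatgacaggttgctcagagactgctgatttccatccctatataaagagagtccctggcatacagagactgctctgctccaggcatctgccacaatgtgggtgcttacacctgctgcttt
SAMHD1, chr20:36951659-36951958, minus strand: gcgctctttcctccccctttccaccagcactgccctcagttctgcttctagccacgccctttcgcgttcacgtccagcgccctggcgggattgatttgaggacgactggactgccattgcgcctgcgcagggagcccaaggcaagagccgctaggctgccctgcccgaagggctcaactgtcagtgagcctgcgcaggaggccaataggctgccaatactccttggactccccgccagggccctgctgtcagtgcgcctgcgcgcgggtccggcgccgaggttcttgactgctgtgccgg
The 2-base spacing was found in 4 of the 8 windows, against 3.57% of all 35116 windows. By gene it was found in 3 of the 5 (OAS3, MX1 and RSAD2), against 4.38% of all genes with a window. GAAANGAAA was found in 5 of the 8 windows, against 3.12% of all windows. By gene it was found in 4 of the 5 (OAS1, OAS3, MX1 and RSAD2), against 3.87% of all genes with a window. Counted from the annotated start, with positions before it negative, OAS1 had its match at -17. OAS3 had the 2-base spacing at -143 and -12, and the first of these overlapped GAAANGAAA at -148. MX1 start 1 had an overlapping pair at 7 and 12 and 1 more GAAANGAAA on the opposite strand at -19, and RSAD2 start 1 had 4 copies of GAAANGAAA between -152 and -60, while RSAD2 start 2 had 1 match to the 2-base spacing on the opposite strand at -145. The SAMHD1 window held neither form. TTCNNNGAA, the letters of the interferon-γ-activated site, was found in 2 of the 8 windows (OAS1 and an MX1 start not printed) and in 7.66% of all windows. A match is a description of the letters in this window and does not show binding.

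Expressed genes were those whose brightest probe set had a geometric mean signal over the 4 arrays (the mean of the log2 signals, turned back to a signal) of at least 66.3, the median of this value over all probe sets, and 12521 genes passed. All 8 antiviral enzyme genes passed, although the mean includes the control siRNA arrays where they were brightest. RSAD2 had 34.0 in ARRB1 siRNA nicotine cells, below the median of that array. Of the 19 probe sets, 16 passed.

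All 8 genes had lower signals with ARRB1 siRNA than with control siRNA, under both treatments and with each of 3 scalings of the arrays. On the deposited scale 47.8% of expressed genes were lower in nicotine treated cells and 47.6% in serum starved cells. In nicotine treated cells 7 of the 8 were at least 2-fold lower, against 1.4% of expressed genes, and the median gene had 30.03% of its control siRNA signal. In serum starved cells 5 of the 8 were at least 2-fold lower, against 0.783% of expressed genes, and the median gene had 41.6% of its control siRNA signal. OAS2, OASL, MX1, MX2 and RSAD2 were at least 2-fold lower under both treatments, as were 0.327% of expressed genes. None of the 8 was at least 2-fold higher, where 0.879% of expressed genes were in nicotine treated cells, 1.01% in serum starved cells and 0.168% in both. Since the genes were chosen with these values known, the shares of all genes are given as background only.

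**Figure D1:**
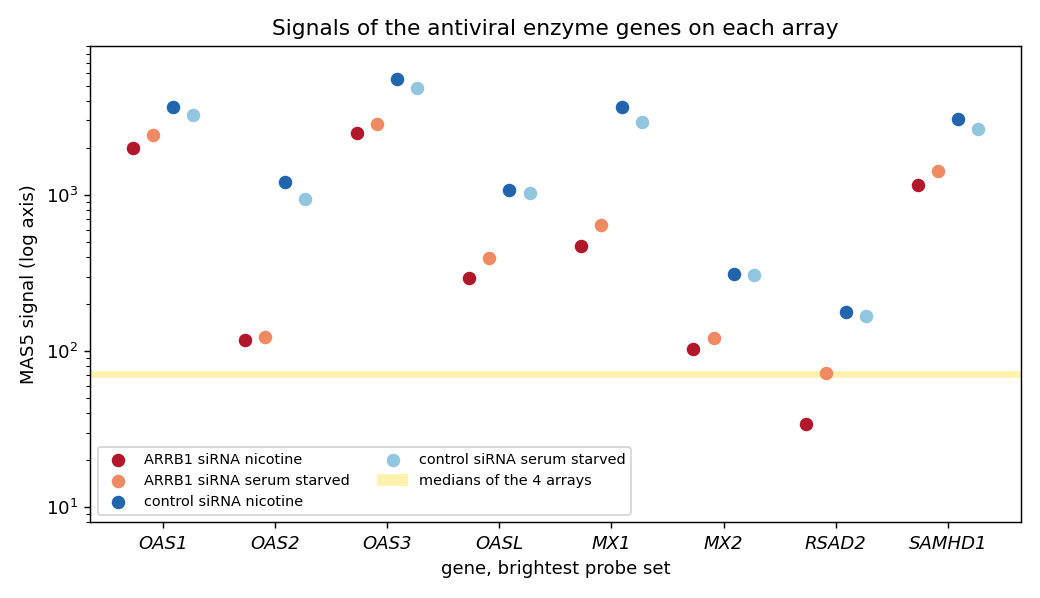
MAS5 signals (log axis) of the brightest probe set of each antiviral enzyme gene, with 1 point per array (dark red, ARRB1 siRNA nicotine; orange, ARRB1 siRNA serum starved; dark blue, control siRNA nicotine; light blue, control siRNA serum starved) and a yellow band for the medians of the 4 arrays (68.6 to 73.3). Both ARRB1 siRNA points lie below both control siRNA points for all 8 genes, an arrangement found for 22.6% of expressed genes.

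OAS2, the family member with a tandem pair of OAS units, differed most among the 8 genes on their brightest probe sets. Its brightest probe set, 204972_at, had a signal of 118 in ARRB1 siRNA nicotine cells, against 1217 in control siRNA nicotine cells. Among serum starved cells it had 123 with ARRB1 siRNA, against 936 with control siRNA. These are log2 differences of -3.37 and -2.92, or 10.4-fold and 7.58-fold lower, and each is the second lowest of the 12521 expressed genes. The SD of the log2 differences of 500 probe sets of similar signal, used throughout as the measure of spread, was 0.40 between the nicotine arrays and 0.38 between the serum starved arrays. The other OAS2 probe sets were lower under both treatments as well. Probe set 228607_at had 31.3 with ARRB1 siRNA and 159.9 with control siRNA in nicotine treated cells, and 35.6 with ARRB1 siRNA and 163 with control siRNA in serum starved cells. Probe set 206553_at, whose geometric mean signal of 65.8 did not reach the limit for expressed genes, had 6.48 in ARRB1 siRNA nicotine cells, against 73.0 in ARRB1 siRNA serum starved, 182 in control siRNA nicotine and 217 in control siRNA serum starved cells. Both ARRB1 siRNA values lay below both control siRNA values on all 3 OAS2 probe sets, as on the brightest probe set of 22.6% of expressed genes. By the median of its signals on each array, OAS2 had log2 differences of -2.54 in nicotine treated and -1.57 in serum starved cells. The first compares 228607_at with ARRB1 siRNA to 206553_at with control siRNA, and the second is that of 206553_at alone. The log2 differences of 228607_at itself were -2.35 and -2.20, and those of 206553_at were -4.82 and -1.57.

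OAS1, the smallest of the OAS enzymes, had the smallest difference of the 8 genes on their brightest probe sets. Probe set 202869_at had a signal of 2004 with ARRB1 siRNA, against 3633 with control siRNA, in nicotine treated cells. Its signals in serum starved cells were 2434 with ARRB1 siRNA, against 3247 with control siRNA. The log2 differences of -0.86 and -0.42 did not reach 2-fold, and that of the serum starved cells was 1.85 times the SD at this signal. The second probe set, 205552_s_at, differed more, by -1.18 in nicotine treated and -0.77 in serum starved cells, with 1420 and 1618 with ARRB1 siRNA, against 3218 and 2750 with control siRNA. By the median over both probe sets the log2 difference of OAS1 was -1.02 in nicotine treated cells, past the 2-fold limit, and -0.59 in serum starved cells.

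OAS3, which prefers long double-stranded RNA, lies between OAS1 and OAS2 on chromosome 12 and differed less than OAS2. Probe set 218400_at had 2476 with ARRB1 siRNA, against 5547 with control siRNA, in nicotine treated cells. It had 2833 with ARRB1 siRNA, against 4819 with control siRNA, in serum starved cells. The log2 difference was -1.16 in nicotine treated cells, just past the 2-fold limit, and -0.77 in serum starved cells. The dimmer 232666_at had 89.9 in ARRB1 siRNA nicotine and 55.6 in ARRB1 siRNA serum starved cells, against 126 and 112 in the matching control siRNA cells, and was the 1 OAS probe set with a larger difference in starved (-1.01) than in nicotine treated cells (-0.48). By the median over both probe sets OAS3 had -0.82 in nicotine treated cells, short of 2-fold and the smallest of the 8 there.

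OASL, which carries ubiquitin-like repeats beside its OAS unit, gave like values on its 2 probe sets. Probe set 205660_at had 295 with ARRB1 siRNA, against 1078 with control siRNA, in nicotine treated cells (log2 difference -1.87). Its signals in serum starved cells were 397 with ARRB1 siRNA, against 1029 with control siRNA (-1.37). For 210797_s_at the log2 differences were -1.64 and -1.19. The 4 values with ARRB1 siRNA on these probe sets were 287 to 397, and the 4 with control siRNA were 825 to 1078.

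MX1 encodes MxA, which restricts influenza and other RNA viruses in the cytoplasm, and differed most after OAS2 on the brightest probe sets. Its single probe set, 202086_at, had 472 with ARRB1 siRNA, against 3633 with control siRNA, in nicotine treated cells, a log2 difference of -2.94. Without nicotine it had 646 with ARRB1 siRNA, against 2937 with control siRNA, a log2 difference of -2.18. The SDs at this signal were 0.33 and 0.31. MX1 was thus 7.7-fold lower with ARRB1 siRNA in nicotine treated cells and 4.55-fold lower in serum starved cells. The 2 ARRB1 siRNA values lay below the 2 control siRNA values, as they did for 22.6% of expressed genes.

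MX2, the neighbour of MX1 on chromosome 21, encodes MxB, which acts at the nuclear pore and restricts HIV-1. Its single probe set, 204994_at, had 103 with ARRB1 siRNA, against 314 with control siRNA, in nicotine treated cells. Without nicotine the signals were 121 with ARRB1 siRNA, against 305 with control siRNA. The log2 differences were -1.60 and -1.33, with SDs of 0.44 and 0.43 at this lower signal.

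With no floor on the signals, RSAD2 was the gene whose difference was least alike under the 2 treatments. Probe set 242625_at had 34.0 with ARRB1 siRNA, against 177 with control siRNA, in nicotine treated cells. In serum starved cells it had 72.6 with ARRB1 siRNA, against 167 with control siRNA. The log2 differences of -2.38 and -1.20 were 4.13 and 2.15 times the SD at this signal. Probe set 213797_at, with a geometric mean signal of 50.4, had 7.73 and 40.4 in ARRB1 siRNA nicotine and serum starved cells, against 141 and 146 in the matching control siRNA cells. With a floor at each array's median, the log2 difference on 242625_at was -1.36 in nicotine treated and -1.20 in serum starved cells. RSAD2 was then no longer the gene least alike. CMPK2, the nucleotide kinase next to RSAD2 on chromosome 2, had 274 with ARRB1 siRNA, against 1899 with control siRNA, in nicotine treated cells and 472, against 1968, in serum starved cells.

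SAMHD1 had 6 probe sets, all lower with ARRB1 siRNA under both treatments. The brightest, 234987_at, had 1162 with ARRB1 siRNA, against 3046 with control siRNA, in nicotine treated cells. Without nicotine it had 1413 with ARRB1 siRNA, against 2625 with control siRNA. The log2 difference was -1.39 in nicotine treated cells and -0.89 in serum starved cells, the value just short of the 2-fold limit, whereas that of RSAD2 in serum starved cells (-1.20) was the one just past it. Probe sets 235964_x_at and 204502_at were at least 2-fold lower under both treatments, at -1.13 and -1.35 in nicotine treated and -1.13 and -1.04 in serum starved cells. Probe set 235529_x_at differed by -0.86 and -0.55. The dim probe sets 1559883_s_at and 1559882_at, with geometric mean signals of 75.5 and 17.2, differed by less than the SD at their signal in both comparisons.

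Of all 19 probe sets, 19 were lower with ARRB1 siRNA in each comparison, and 14 in nicotine treated and 12 in serum starved cells were at least 2-fold lower. On 18 of the 19 both ARRB1 siRNA signals lay below both control siRNA signals, the exception being 1559882_at of SAMHD1. The same held for the brightest probe set of all 8 genes, and for 22.6% of expressed genes. The median log2 difference of the 8 genes was -1.74 between the nicotine arrays and -1.27 between the serum starved arrays, where that of all expressed genes was 0.02 in both. These comparisons share no array. The differences of all 8 genes exceeded the SD at their signal, by 3.47 to 8.84 times between the nicotine arrays and 1.85 to 7.77 times between the serum starved arrays.

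**Figure D2:**
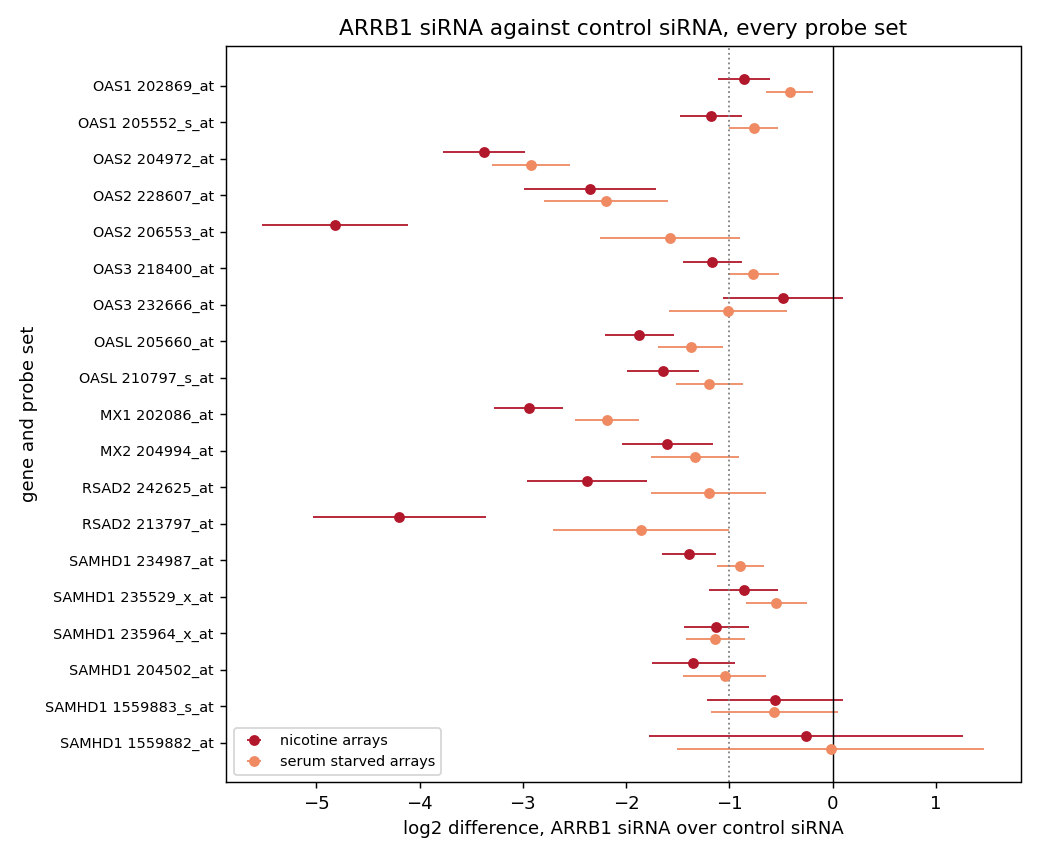
Log2 differences, ARRB1 siRNA over control siRNA, of each of the 19 probe sets (rows, by gene and falling mean signal within a gene) between the nicotine arrays (dark red) and the serum starved arrays (orange). Bars are the SD of the differences of 500 probe sets of similar signal, the dotted line marks 2-fold lower, and all points lie below 0, from -4.82 for OAS2 206553_at to -0.02 for SAMHD1 1559882_at.

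The genes of the OAS cluster and of the MX pair are neighbours and did not share the size of their difference. OAS2 was lower by 2.51 more log2 units than OAS1 in nicotine treated cells and by 2.51 more in serum starved cells, and MX1 was lower than MX2 by 1.34 log2 units more in nicotine treated and 0.85 more in serum starved cells. By the median over probe sets the values of OAS2 and OAS1 in serum starved cells lay nearer to each other, at -1.57 and -0.59. The OAS2 value there is that of 206553_at, which did not reach the limit for expressed genes. Probe sets differ in how signal follows RNA, so that these gaps compare probe sets and not RNA amounts.

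Nicotine was compared with serum starvation within each siRNA, with arrays that the comparisons above also used. In ARRB1 siRNA cells all 8 genes had lower signals with nicotine, as did 51.9% of expressed genes, with a median log2 difference of -0.28 for the 8. RSAD2 (-1.09) was the 1 gene at least 2-fold lower, where 0.958% of expressed genes were lower and 0.495% higher by as much. The RSAD2 value rests on the signal of 34.0, and it was -0.07 with a floor at each array's median and -1.74 by the median over its probe sets. In control siRNA cells all 8 had higher signals with nicotine, with a median of 0.18 and a largest difference of 0.38 for OAS2. Of expressed genes, 55.6% were lower with nicotine in those cells. None of the 8 reached 2-fold there, where 0.719% of expressed genes were higher by as much and 0.335% lower. With each array centred on its median, OASL, MX2 and RSAD2 turned to -0.03, -0.06 and -0.01 in control siRNA cells, and after quantile normalization all 8 kept their direction. By the median signal over probe sets on each array OAS3 turned to 0.25 in ARRB1 siRNA cells. OAS2 turned to -0.25 in control siRNA cells, the value of its dimmest probe set, 206553_at. Of the 19 probe sets, 16 were lower with nicotine in ARRB1 siRNA cells and 14 were higher in control siRNA cells. The differences reached at most 1.99 times the SD at their signal in ARRB1 siRNA cells and 1.5 times in control siRNA cells, and 3 of the 8 genes stayed within 1 SD in each (OAS2, OAS3 and MX2 in ARRB1 siRNA cells, and OASL, MX2 and RSAD2 in control siRNA cells).

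For all 8 genes the arrays thus ran from the highest to the lowest signal as follows: control siRNA nicotine, control siRNA serum starved, ARRB1 siRNA without nicotine and ARRB1 siRNA nicotine. The same order was found for 4.9% of expressed genes and for 11 of the 19 probe sets of these genes. With each array centred on its median it held for 5 of the 8 genes and 2.43% of expressed genes, since the nicotine and starved control siRNA arrays then changed places for OASL, MX2 and RSAD2. On the brightest probe sets the 2 control siRNA arrays did not differ beyond the SD for OASL, MX2 and RSAD2. The 2 ARRB1 siRNA arrays did not do so for OAS2, OAS3 and MX2.

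**Figure D3:**
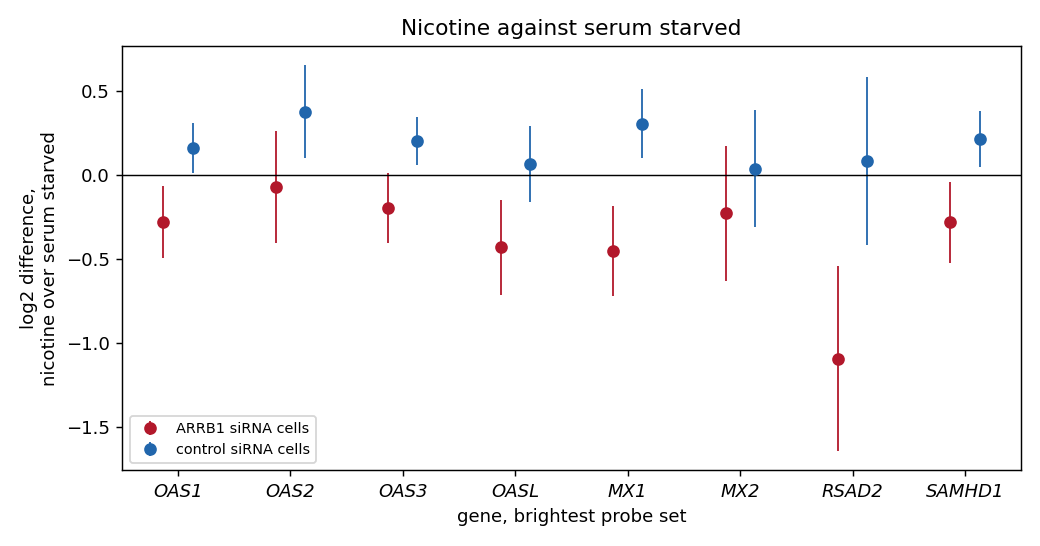
Log2 differences, nicotine over serum starved, of the brightest probe set of each gene in ARRB1 siRNA cells (dark red) and in control siRNA cells (blue). Bars are the SD of the differences of 500 probe sets of similar signal, and the red points lie between -1.09 and -0.07 and the blue points between 0.04 and 0.38.

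The pathway around these enzymes was read from lists of its other genes. Of the ligands, 1 of 8 interferon genes with a probe set, IFNE, an epithelial type I interferon, was expressed, with 208 in ARRB1 siRNA nicotine and 162 in ARRB1 siRNA serum starved cells, against 139 in control siRNA nicotine and 92.2 in control siRNA serum starved cells. The other 7 had signals of 0.712 to 79.8 over the 4 arrays and did not pass the limit. STAT2 and IFNL3 were not analysed here.

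Among 16 expressed genes of interferon receptors and signaling, the median log2 difference with ARRB1 siRNA was -0.10 in nicotine treated and -0.06 in serum starved cells. At least 2-fold lower were 3 genes in nicotine treated cells, namely IRF7, a factor that is itself induced by interferon (-1.66), USP18, which removes ISG15 and restrains the receptor (-1.41), and IRF9, a DNA-binding factor of the interferon response (-1.05). After centring of each array on its median 2 of them were. In serum starved cells IRF7 (-1.35) was the 1 such gene. IRF7 had signals of 528 and 615 in ARRB1 siRNA nicotine and serum starved cells, against 1664 and 1569 in the matching control siRNA cells. Among receptor chains, IL10RB had log2 differences of -0.65 in nicotine treated and -0.23 in serum starved cells (SD 0.33 and 0.29), and IFNLR1, named after its values were seen, of -0.08 and -0.50 (SD 0.45 in both). IFNAR2 and IFNGR2 had log2 differences of 0.08 and 0.14 in nicotine treated and -0.05 and 0.05 in serum starved cells.

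Other interferon-stimulated genes had the same direction as the enzymes. Of 36 listed genes 35 were expressed. Of these, 34 were lower with ARRB1 siRNA in nicotine treated and 35 in serum starved cells, and 24 and 15 were at least 2-fold lower, with medians of -1.18 and -0.92 and none at least 2-fold higher. XAF1, a pro-apoptotic factor, had 87.0 in ARRB1 siRNA nicotine and 187 in ARRB1 siRNA serum starved cells, against 1278 and 1162 in the matching control siRNA cells (-3.88 and -2.64). IFIT1, which binds viral RNA without a methylated cap, had log2 differences of -3.34 and -2.04, and IFI44L of -3.06 and -1.90. The smallest differences were those of ISG20, an exonuclease (0.06 and -0.53), and IFI6 (-0.54 and -0.27). Of the 41 expressed genes at least 2-fold lower under both treatments, 5 were antiviral enzyme genes, 15 were of this list and 1, IRF7, was of the signaling list. The other 20 were in none of the lists. With nicotine, 32 of the 35 were lower in ARRB1 siRNA cells and 11 in control siRNA cells (22 after centring each array on its median). The lists were drawn up with earlier results of these arrays known.

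**Figure D4:**
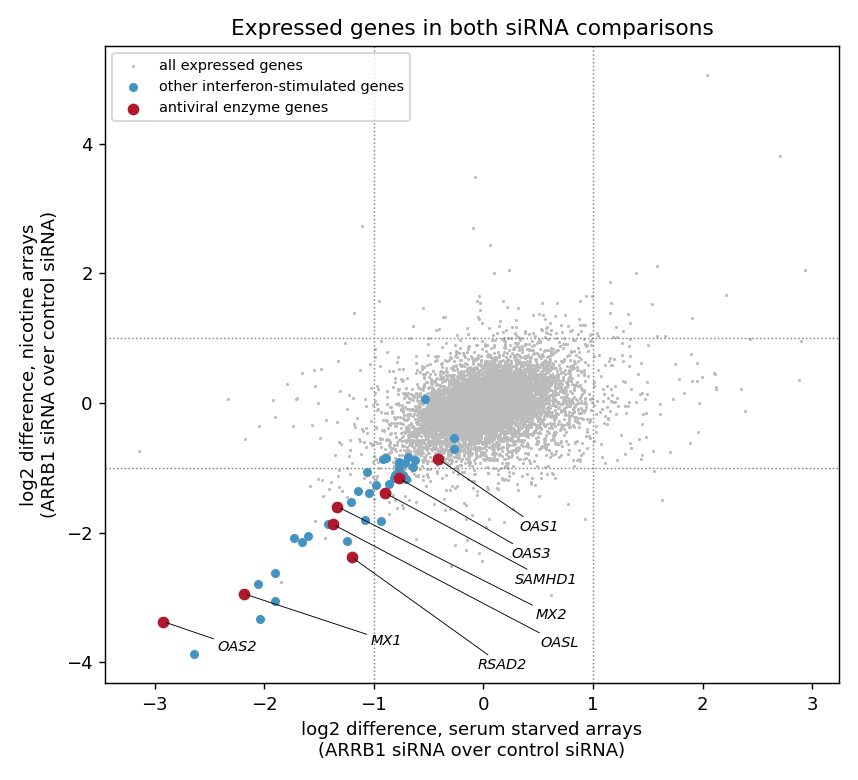
Log2 differences, ARRB1 siRNA over control siRNA, of the 12521 expressed genes (grey) between the serum starved arrays (horizontal) and the nicotine arrays (vertical), with the 8 antiviral enzyme genes in red and the 35 other interferon-stimulated genes in blue. Dotted lines mark 2-fold, and OAS2, OASL, MX1, MX2 and RSAD2 lie past both lower lines.

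Lists of genes tied to the enzymes by substrate or family had smaller median differences. ABCE1, a factor of ribosome recycling, and PDE12, which degrades oligoadenylates, had log2 differences of 0.08 and 0.03 in nicotine treated and 0.19 and -0.04 in serum starved cells. Among 11 expressed genes of deoxynucleotide metabolism, whose product SAMHD1 cleaves, none was 2-fold different, with medians of 0.14 and 0.09. The largest differences there were those of RRM2B, a subunit of ribonucleotide reductase (-0.35 in nicotine treated and 0.51 in serum starved cells, SD 0.27 and 0.23). Among 7 dynamin family genes, relatives of the MX proteins, none was 2-fold different, with medians of 0.05 and 0.14. In serum starved cells RRM2B and DNM3 (0.49, SD 0.65) differed more in size than OAS1 (-0.42).

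**Figure D5:**
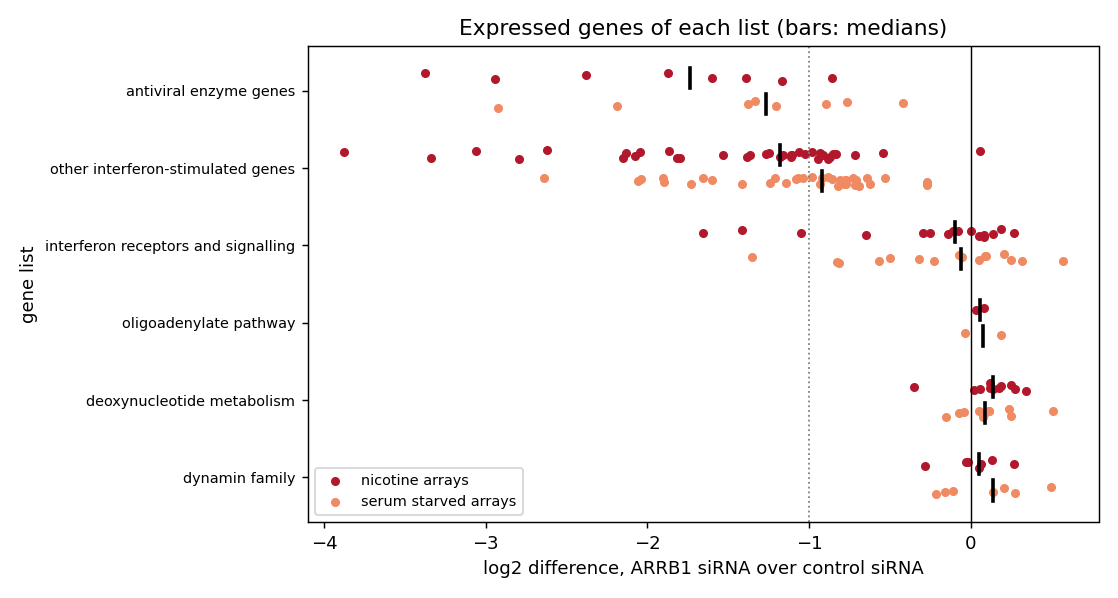
Log2 differences, ARRB1 siRNA over control siRNA, of the expressed genes of each list (rows) between the nicotine arrays (dark red) and the serum starved arrays (orange), with black bars for the medians and a dotted line for 2-fold lower. The medians are -1.74 and -1.27 for the antiviral enzyme genes, -1.18 and -0.92 for other interferon-stimulated genes, and between -0.10 and 0.14 for the other 4 lists shown.

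The genes most like the antiviral enzymes over the 4 arrays were found by the root mean square distance between each gene's log2 signals, centred on that gene's mean, and the mean profile of the 8 genes. The nearest 10 lay at distances of 0.04 to 0.21 log2 units. In order they were IFIH1, which encodes the RNA sensor MDA5, DDX60, PARP9, IRF7, ISG15, IFIT3, IFIT2, IFI35, HELZ2 and DDX60L. Of these, 7 were in the lists above, and DDX60, HELZ2 and DDX60L were not. IFIH1 had 299.8 in ARRB1 siRNA nicotine and 389 in ARRB1 siRNA serum starved cells, against 1095 in control siRNA nicotine and 1038 in control siRNA serum starved cells. Among the 8 genes OASL (0.05) and MX2 (0.12) lay nearest the mean profile and OAS2 (0.75) farthest. With 4 arrays a small distance is a description of the likeness of these profiles and nothing more.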

How the data were processed

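Signals of 4 Affymetrix Human Genome U133 Plus 2.0 arrays were used. Per the submitters' processing notes, the authors made the deposited values with MAS5 in GCOS 1.4, while the study's results name Affymetrix Expression Console, and the deposited values are linear signal intensities. The log2 transformation and centring per gene that the study describes are not in them. MAS5 subtracts mismatch signal and scales each array, so that dim probe sets vary most. Detection calls were not used.

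After 62 control probe sets were left out, log2 differences were taken with no floor (Python 3.11.15, numpy 2.4.6, pandas 2.3.3, matplotlib 3.10.9). Of 54613 probe sets, 41091 had 1 gene symbol, 1801 several and 11721 none, and symbols were updated by gene ID for 41037. The brightest probe set, by mean log2 signal, stood for a gene. The limit was 2-fold, as in the submitters' notes. With 1 array per group no p-value was computed, and the SD of log2 differences over 500 probe sets of similar signal describes the spread. The procedure was tested on simulated data with 200 changed genes.

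The members and lists were chosen with earlier results of these data known. Named genes were all members, ARRB1, the 10 most alike genes, and from each list up to 4 genes with the largest and 2 with the smallest mean absolute siRNA difference. CMPK2 also stands as the neighbour of RSAD2. The alternatives were centring on the median, quantile normalization, floors at the 25th percentile or the median, the median over probe sets, leaving out _x_at probe sets, limits of 1.5-fold and 3-fold, and no filter or one at the 75th percentile. The median over probe sets was taken of the log2 signals on each array before the difference, so that it can compare different probe sets.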

Additional observations from a re-analysis of the deposited data

Results flagged for a closer look

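The nicotine difference had opposite signs in ARRB1 siRNA and control siRNA cells for all 8 genes on their brightest probe sets, lower with nicotine in ARRB1 siRNA cells and higher in control siRNA cells, as was the case for 20.8% of expressed genes. The nicotine log2 difference in ARRB1 siRNA cells minus that in control siRNA cells was -0.44 for OAS1, -0.45 for OAS2, -0.40 for OAS3, -0.50 for OASL, -0.76 for MX1, -0.27 for MX2, -1.18 for RSAD2 and -0.50 for SAMHD1, with a median of -0.47, against 0.01 over all expressed genes (SD 0.42). The same number is the gap between the siRNA differences of the nicotine and the serum starved arrays. With 1 array per group this difference was not tested. With each array centred on its median, OASL, MX2 and RSAD2 were lower with nicotine in control siRNA cells too. By the median signal over probe sets on each array OAS3 was higher with nicotine in both (0.25 in ARRB1 siRNA and 0.18 in control siRNA cells). For OAS2 that median gave -1.22 and -0.25, but the -1.22 compares 228607_at with nicotine to 206553_at without it. On 204972_at, 228607_at and 206553_at, OAS2 had -0.07, -0.19 and -3.49 in ARRB1 siRNA cells and 0.38, -0.03 and -0.25 in control siRNA cells. With a floor at each array's median RSAD2 had -0.07 in ARRB1 siRNA and 0.08 in control siRNA cells. On other probe sets the gap was 0.53 for OAS3 232666_at and 0.01 for SAMHD1 235964_x_at and 1559883_s_at.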

How the results depend on the processing

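The siRNA differences of the 8 genes kept their direction under all 6 alternatives of scaling, floor and probe set (96 of 96 values, from -3.37 to -0.40), and the nicotine differences kept theirs in 91 of 96. Many of these values could not change. The lower floor and leaving out _x_at probe sets returned the main value for every gene. The floor at the array median changed RSAD2 alone, and the median over probe sets cannot change MX1 and MX2, which have 1 probe set each. Both counts thus overstate how far direction was tried. The 4 median differences moved by less than the SD of probe sets of similar signal. With a limit of 3-fold, 2 genes rather than 5 differed in serum starved cells, and 2 rather than 5 under both treatments. In ARRB1 siRNA cells, the 1 gene at least 2-fold different with nicotine became 0 with a floor at the array median, 0 at 3-fold, and 2 with the median over probe sets. The added gene was OAS2 (-1.22), whose value compares different probe sets. With no filter on dim genes, 15.1% to 16.6% of genes were at least 2-fold different in a comparison, and 0.0613% to 0.846% of genes at or above the 75th percentile. OAS1 and not OAS3, by the median over probe sets, was among the 7 genes at least 2-fold lower in nicotine treated cells with ARRB1 siRNA. No paired analysis was possible because the groups have 1 array each and so share only 1 replicate number, which also prevents leaving out a replicate and limits the precision of every value.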
